A study of Mus musculus with 6 samples.

Results

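The enzymes that hydroxylate, fold and crosslink collagen were examined in osteoblastic cultures of mouse calvarial cells, as a set of 10 genes given by name (Lox, Loxl1, Loxl2, Loxl3, Plod1, Plod2, Plod3, P4ha1, P4ha2 and Serpinh1). All 10 were found by symbol among the 53715 genes of the deposited tables, and all 10 passed the filter on low read counts. The cells came from the skull vaults of newborn C57BL/6J mice and were kept for 7 days in osteogenic medium with ascorbic acid, β-glycerophosphate and dexamethasone. The Wild-type group had 3 libraries. The Fam102a KO group also had 3, from mice in which Actb-Cre, a ubiquitously active deleter, had removed the loxP-flanked exons 2 and 3 of Fam102a throughout the body. Both groups received the same medium, and day 7 was the one time point. Nothing in the labels ties a library to an animal or a litter, so the p-values measure the spread between these libraries, which may be technical.

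Collagen chains are modified in the endoplasmic reticulum before they leave the cell. Prolyl 4-hydroxylases, whose catalytic subunits include the products of P4ha1 and P4ha2, hydroxylate proline and so stabilize the triple helix. Lysyl hydroxylases, encoded by Plod1, Plod2 and Plod3, hydroxylate lysine, and the Plod2 product is known for acting on the telopeptides, which sets the kind of crosslink found in bone. Hsp47, the product of Serpinh1, is a collagen-specific chaperone. Outside the cell, lysyl oxidase and its relatives, encoded by Lox and the Loxl genes, are copper enzymes that oxidize lysine and hydroxylysine and thereby start the covalent crosslinks of collagen and elastin.

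The Lox family is a family of related sequences, and the reads of its members can be told apart only where their sequences differ. The most alike 60 bases of coding sequence of Loxl2 and Loxl3, with the best match in Loxl1, are shown because they are the place where reads of these 3 genes could most easily be confused, together with the matching bases of Gm21451. Capitals mark the 18 positions that are not identical in Loxl1, Loxl2 and Loxl3. The sequences are from GENCODE transcripts on mm10 and read along the gene.
Loxl1: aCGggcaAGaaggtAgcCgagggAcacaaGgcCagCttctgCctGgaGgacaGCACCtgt
Loxl2: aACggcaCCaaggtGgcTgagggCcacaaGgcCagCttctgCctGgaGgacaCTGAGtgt
Gm21451: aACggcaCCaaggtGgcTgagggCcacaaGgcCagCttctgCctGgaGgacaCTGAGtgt
Loxl3: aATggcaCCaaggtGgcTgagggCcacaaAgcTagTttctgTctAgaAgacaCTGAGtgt
The Loxl2 stretch lies in exon 11 at chr14:69689077-69689136 on the plus strand, that of Loxl3 in exon 11 at chr6:83050165-83050224 on the plus strand, and that of Loxl1 in exon 4 at chr9:58293618-58293677 on the minus strand. Loxl2 and Loxl3 had 53 of the 60 bases in common, Loxl1 and Loxl2 had 48, and the longest identical run between any pair of the 4 family members was 32 bases, between Lox and Loxl1.

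Loxl2 was different, because it has a near-identical copy. Gm21451, annotated as an unprocessed pseudogene at chr14:69390854-69480287, had all 60 bases of the Loxl2 stretch, at chr14:69470802-69470861, and the longest identical run between the transcripts of Loxl2 and Gm21451 was 2348 bases. Of the 5356 different windows of 50 bases in Loxl2 transcripts, 45.0% were also present in other annotated transcripts, and in the longest transcript these windows took up exons 2 to 11 entirely, while 112 of the 2746 windows that start in exon 14, the last exon, were shared. In the deposited tables between 37.2% and 41.0% of the Loxl2 exon reads of a library were placed uniquely, against at least 91.7% for the other 9 genes. Gm21451 itself was given 292, 453 and 247 exon reads in the Wild-type libraries and 148, 441 and 125 in the Fam102a KO libraries, of which 0 to 2 were unique. How the reads that fit both copies were divided is not given in the sources used here, so the Loxl2 values below are uncertain, and they are repeated with unique reads and with the reads of both copies added up. Loxl3 and Plod3 overlap the exons of genes on the opposite strand, Htra2 by 535 bases and Znhit1 by 529 bases, and no source used here states a count by strand, so a part of their reads could come from these neighbours. Plod2 shares 346 exon bases with the opposite-strand Gm38391, which had 0 reads in every library.

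The libraries held 12212169 to 21210150 reads assigned to genes, of which 5801394 to 9928262 were in exons, and 45.8% to 54.5% of gene reads lay in introns. Because the tables pool all exons of Fam102a, they cannot show the loss of exons 2 and 3 directly. Fam102a had 12.6 to 14.4 CPM of gene reads (reads relative to the size of the library, scaled by TMM factors) in Wild-type and 12.8 to 13.8 in Fam102a KO, and its exon reads were 21.2 to 23.8 CPM and 17.0 to 18.1 CPM, groups that did not overlap (log2 fold change −0.34 ± 0.14 (SE), edgeR adjusted p = 0.667). Among the osteoblast markers, Col1a1 was abundant, and Runx2 had 56.5 to 90.4 CPM of gene reads. Bglap and Bglap2, which mark mature osteoblasts, had at most 53 and 32 gene reads in any library, both in Fam102a KO replicate 2. Alpl, the alkaline phosphatase of osteoblasts, had 47.9, 52.4 and 74.6 CPM in Wild-type and 16.4, 24.7 and 14.0 CPM in Fam102a KO (log2 fold change −1.67 ± 0.26, SE, adjusted p = 0.161 with edgeR and 4.6e-08 with DESeq2). Sp7, an osteoblast transcription factor, was likewise lower in every Fam102a KO library (log2 fold change −0.98 ± 0.18, SE, adjusted p = 0.193 with edgeR and 0.00378 with DESeq2). Summed markers of cartilage reached 980 to 2443 CPM and those of macrophages 358 to 2066 CPM over the 6 libraries, so the cultures were not osteoblasts alone. As in any bulk sample, a change in the number of cells of a type and a change in RNA per cell cannot be told apart. The tables of replicates 2 and 3, in either genotype, name the same sequencing run, which is not named in those of replicate 1.

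The 10 genes spanned a wide range of levels. Levels are given here per length, as TMM-scaled CPM of exon reads per kilobase of exon. Serpinh1 (chr7:99345376-99353239, minus strand) was the highest, with 783, 782 and 741 in the Wild-type libraries and 995, 938 and 762 in the Fam102a KO libraries. Only 36 of the 13858 genes tested on exon reads had a higher mean level than Serpinh1. Lox (chr18:52516069-52529867, minus strand) followed with 630, 527 and 522 in Wild-type and 668, 641 and 657 in Fam102a KO, and 58 genes had a higher mean level. These ranks were held in every library, so the chaperone and the principal lysyl oxidase stood apart from the remaining enzymes.

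The 3 Loxl genes came next at about the same level as each other. The Wild-type mean was 89.4 ± 11.4 (SD, n = 3) for Loxl2 (chr14:69609068-69695834), 84.3 ± 9.02 for Loxl3 (chr6:83034173-83052562) and 83.5 ± 4.66 for Loxl1 (chr9:58287738-58313186, minus strand), and the ranges of the 3 genes overlapped in both genotypes. On unique reads alone, still divided by the whole exon length, the Loxl2 mean was 35.8 in Wild-type and 44.5 in Fam102a KO. The shared stretches can give few unique reads, so these values are too low to set beside Loxl1 and Loxl3. The place of Loxl2 in this order depends on how shared reads were placed. Within each Wild-type library the level of Lox was 6.49 to 7.09 times that of Loxl1, and in Fam102a KO it was 5.59 to 7.77 times.

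Among the hydroxylases Plod3 was highest. Plod3 (chr5:136987019-136996648), which encodes an enzyme that also glycosylates hydroxylysine, had a level of 53.5 ± 3.47 in Wild-type and 52.7 ± 5.42 in Fam102a KO (SD, n = 3 each). P4ha1 (chr10:59323296-59373304) had 31.1, 33.1 and 30.6 in Wild-type and 32.2, 38.9 and 43.5 in Fam102a KO. P4ha2 (chr11:54100095-54131665) had 29.0, 29.8 and 30.1 in Wild-type and 28.9, 31.7 and 33.5 in Fam102a KO. The Wild-type values of the 2 prolyl hydroxylase genes lay close together without overlapping, whereas those of Fam102a KO overlapped. Plod2 (chr9:92542223-92608428) had a Wild-type mean of 23.9 ± 4.96 and Plod1 (chr4:147909753-147936767, minus strand) one of 17.1 ± 1.81, the lowest of the 10, yet only 2524 of the 13858 genes had a higher mean than Plod1. Plod1 was last in 5 of the 6 libraries and Plod2 was last in Fam102a KO replicate 3.

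**Figure D1:**
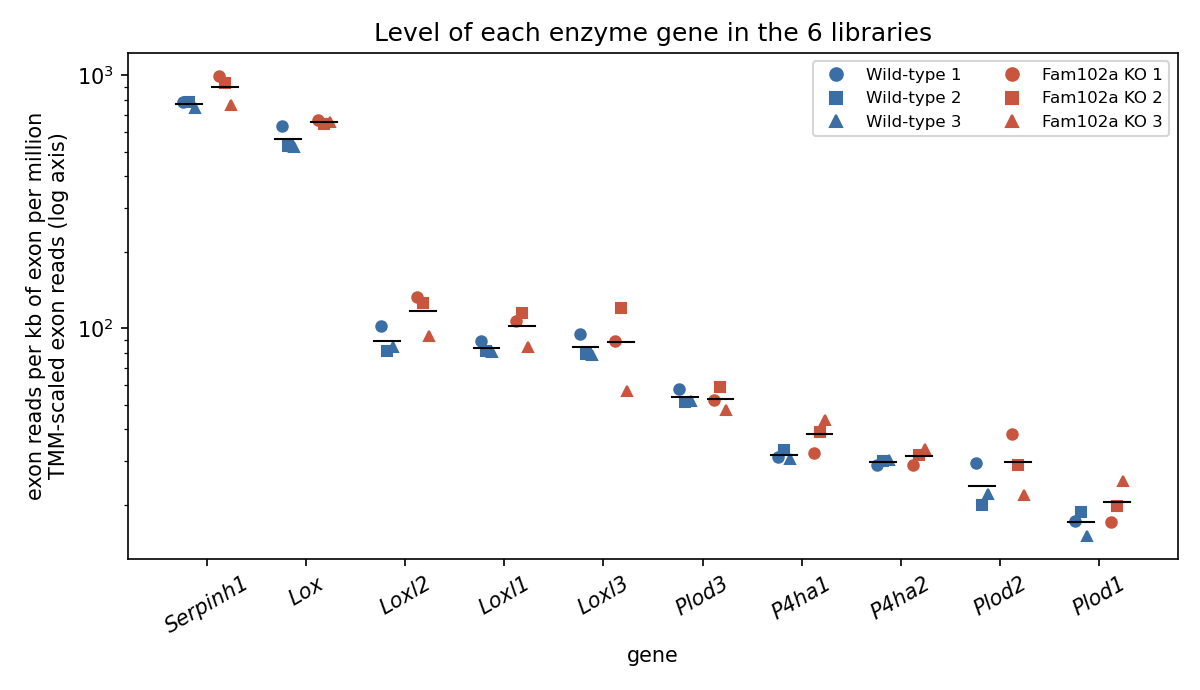
Level of each of the 10 genes in the 6 libraries, as TMM-scaled CPM of exon reads per kilobase of exon on a log axis, with Wild-type in blue, Fam102a KO in red, a symbol for each replicate number and a black bar for the mean of 3 libraries. Serpinh1 and Lox lay above 500 in every library, the 3 Loxl genes between 56.7 and 133, and the hydroxylases below 59.

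The 2 kinds of read count gave nearly the same account of these genes, because few of their reads were intronic. The share of gene reads in introns was 1.01% to 1.28% for Lox and 1.31% to 2.09% for Serpinh1 over the 6 libraries, and 1.53% to 2.49% for Plod3. It was highest for Plod2, at 13.5% to 18.5%, and P4ha1, at 9.89% to 16.4%. Intron shares of all 10 genes overlapped between the genotypes.

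Lox was compared on gene reads in CPM. It had 1472, 1256 and 1282 CPM in Wild-type and 1589, 1510 and 1583 CPM in Fam102a KO. Every Fam102a KO library was above every Wild-type library, though only narrowly, at 1510 against 1472 CPM where they came closest. The Fam102a KO libraries had little spread (1561 ± 43.9, against 1337 ± 118 in Wild-type, SD, n = 3 each). The fitted difference did not pass the test (log2 fold change 0.22 ± 0.14 (SE), 95% interval −0.09 to 0.53, edgeR adjusted p = 0.971). Lox was the only one of the 10 genes whose groups did not overlap, on gene reads as on exon reads, and over all genes 5.48% of those tested on gene reads and 6.05% of those tested on exon reads lay higher without overlap, while 5.61% and 5.69% lay lower.

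Loxl1 and Loxl2, whose products also start crosslinks and of which Loxl1 is known for its part in elastic fibres, had the largest differences of the Lox family. Loxl1 had 150.3, 138 and 144 CPM in Wild-type and 187, 194 and 149 CPM in Fam102a KO. Its log2 fold change was 0.29 ± 0.13 (SE, edgeR adjusted p = 0.816). The third Fam102a KO library lay within the range of the Wild-type libraries, and the other 2 lay above it.

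Loxl2 had 286, 228 and 247 CPM in Wild-type and 377, 352 and 268 CPM in Fam102a KO, again with the third Fam102a KO library inside the Wild-type range. The log2 fold change was 0.39 ± 0.16 (SE, edgeR adjusted p = 0.771), the largest of the 10. For both Loxl1 and Loxl2 the unadjusted p was under 0.05. With unique gene reads the Loxl2 value was 0.32, and with the reads of Gm21451 added, a fit chosen after the data had been seen, it was 0.33. In neither of these fits was its unadjusted p under 0.05. With unique gene reads the same held for Loxl1, and 0 of the 10 genes had such a p, beside 6.35% of all genes. The part of the shared reads in this was not tested.

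Loxl3, the remaining relative, varied most within a genotype. It had 224, 188 and 191 CPM in Wild-type and 212, 281 and 136 CPM in Fam102a KO, so that the Fam102a KO libraries held both the highest and the lowest value of the 6. The log2 fold change was 0.06 ± 0.24 (SE, 95% interval −0.50 to 0.63), and without Fam102a KO replicate 2 it was −0.21.

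Of the lysyl hydroxylase genes, Plod2 had 71.4, 48.6 and 54.0 CPM in Wild-type and 90.3, 69.98 and 56.0 CPM in Fam102a KO. In both genotypes the first replicate was the highest, whereas the lowest was the second in Wild-type and the third in Fam102a KO. The log2 fold change was 0.32 ± 0.20 (SE, edgeR adjusted p = 0.983) in the fit without a replicate term. It was 0.31 ± 0.11 (edgeR adjusted p = 0.517, unadjusted p under 0.05) when a replicate block was included. Without the block it was 0.12 without Fam102a KO replicate 1, 0.20 without Wild-type replicate 2 and 0.49 without Wild-type replicate 1.

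Plod1, which acts on lysines of the helix, had 59.0, 64.9 and 54.7 CPM in Wild-type and 59.5, 68.9 and 87.5 CPM in Fam102a KO. Only the third Fam102a KO library stood clear of the rest. Its log2 fold change of 0.27 ± 0.15 (SE, 95% interval −0.07 to 0.62) became 0.11 without that library. Plod3 had 115 to 127 CPM in Wild-type and 110 to 130 CPM in Fam102a KO, with a log2 fold change of −0.02 ± 0.11 (SE, 95% interval −0.27 to 0.23), and its sign changed with the libraries used.

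P4ha1 had 72.1, 75.0 and 72.3 CPM in Wild-type and 72.0, 87.4 and 106 CPM in Fam102a KO. The Wild-type libraries had an SD of only 1.63 CPM, whereas the Fam102a KO libraries ran from the level of the Wild-type upward. The log2 fold change was 0.27 ± 0.14 (SE, edgeR adjusted p = 0.925), and 0.12 without Fam102a KO replicate 3. P4ha2 had 97.3 to 104 CPM in Wild-type and 96.6 to 115 CPM in Fam102a KO (log2 fold change 0.07 ± 0.11, SE, 95% interval −0.17 to 0.31). The level of P4ha1 was 1.014 to 1.108 times that of P4ha2 in the Wild-type libraries and 1.115 to 1.298 times in the Fam102a KO libraries. These ranges barely missed each other and were not tested. All other ratios of levels that were examined overlapped between the genotypes.

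Serpinh1, the chaperone gene, had 937, 954 and 933 CPM in Wild-type and 1206, 1130 and 941 CPM in Fam102a KO. The first and second Fam102a KO libraries lay above the Wild-type, and the third lay within it. The log2 fold change was 0.21 ± 0.14 (SE, 95% interval −0.10 to 0.53, edgeR adjusted p = 0.984). Without Fam102a KO replicate 1 it was 0.14. Col1a1 and Col1a2, which encode the chains of type I collagen, had log2 fold changes of −0.005 ± 0.20 and 0.02 ± 0.16 (SE). The level per length of Col3a1, for type III collagen, was 608 ± 172 in Wild-type and 796 ± 77.6 in Fam102a KO (SD, n = 3 each). The difference between Serpinh1 and these substrates was not tested. The level of Serpinh1 was 28.9% to 43.3% of that of Col1a1 in Wild-type and 38.1% to 45.1% in Fam102a KO.

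**Figure D2:**
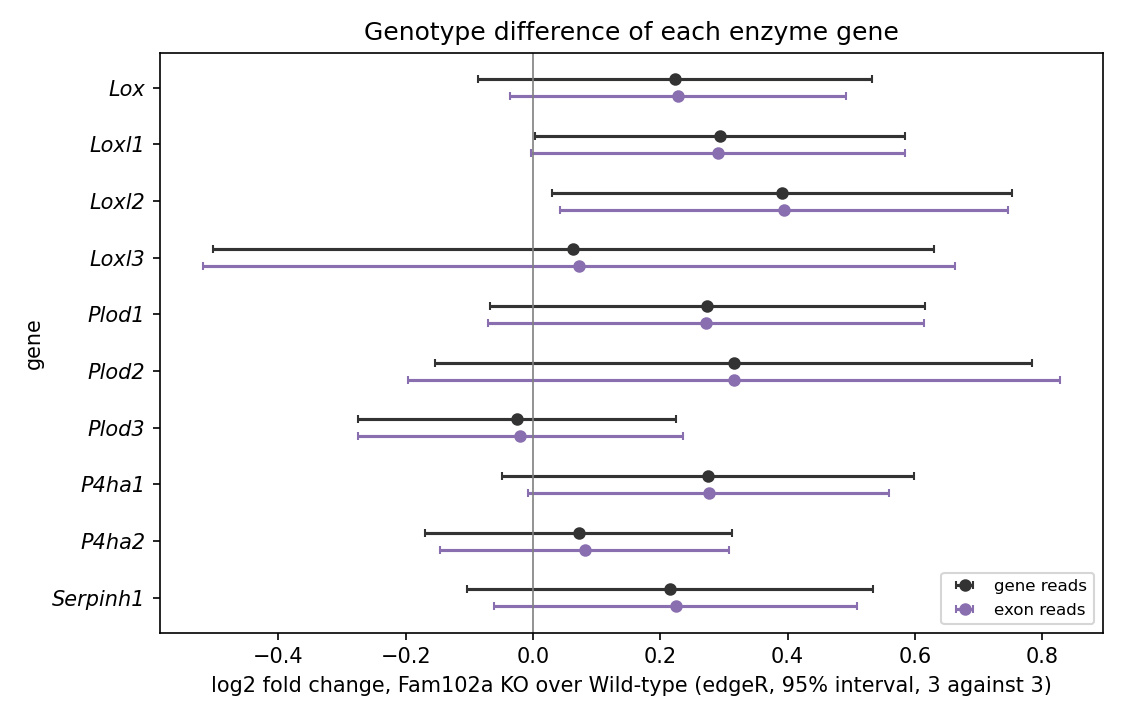
Log2 fold change of Fam102a KO over Wild-type with its 95% interval for each of the 10 genes, from the edgeR fit on gene reads (black) and on exon reads (violet), 3 libraries against 3. Of the 10 values on gene reads 9 were above 0, and the interval excluded 0 for Loxl1 and Loxl2 on gene reads and for Loxl2 on exon reads.

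Considered as a set, none of the 10 genes was called at an adjusted p under 0.05. On gene reads 9 of 10 log2 fold changes were above 0, with a median of 0.25, whereas 49.8% of all 16391 genes tested were above 0 and their median was −0.00. At an unadjusted p under 0.05 edgeR had 2 of the 10 genes higher (Loxl1 and Loxl2) and 0 lower in Fam102a KO, beside 2.92% of all genes higher and 3.12% lower, and DESeq2 had 1 (Loxl2), beside 2.68% higher and 2.61% lower. The smallest adjusted p was 0.771 with edgeR and 0.686 with DESeq2, and 0.0488% of all genes were called by edgeR and 0.708% by DESeq2. On exon reads 9 of 10 were again above 0, beside 51% of all genes, with a median of 0.25. There 1 gene, Loxl2, had an unadjusted p under 0.05 with edgeR, beside 3.41% of all genes higher and 3.4% lower, and with DESeq2, beside 2.73% higher and 2.91% lower. None was called on exon reads, where edgeR called 0.0794% of all genes and DESeq2 0.837%. The members were not drawn independently of one another, and no test was made of the set.

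Because same-numbered libraries deviated together over all genes, the replicate numbers were taken to pair the libraries, which no label states. With the number as a block, a pairing inferred from these same reads, the counts rose. On gene reads 3 of the 10 genes then had an unadjusted p under 0.05 (Loxl1, Loxl2 and Plod2), beside 4.09% of all genes higher and 4.25% lower. On exon reads there were 5, Lox, Loxl1, Loxl2, Plod2 and P4ha1, all higher in Fam102a KO, beside 4.84% of all genes higher and 4.7% lower. The adjusted p of these 5 ran from 0.266 to 0.488 and none was called, while 0.0549% of all genes were called on gene reads and 0.303% on exon reads. Higher in Fam102a KO in all 3 replicate numbers were 6 of the 10 genes on gene reads (Lox, Loxl1, Loxl2, Plod1, Plod2 and Serpinh1), beside 15.1% of all genes, and 5 on exon reads, beside 16.7%. None was lower in all 3, beside 15.2% of all genes on either kind of read.

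**Figure D3:**
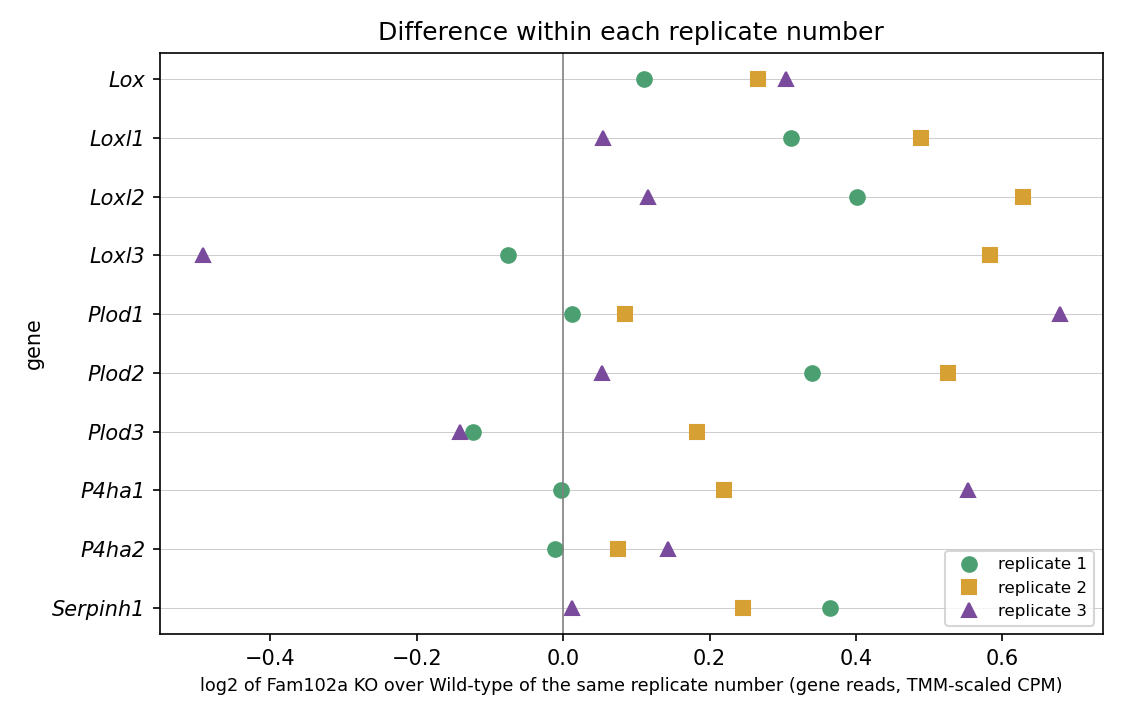
Log2 ratio of Fam102a KO over Wild-type within each replicate number for the 10 genes, in TMM-scaled CPM of gene reads, where each symbol is 1 pair of libraries. In replicate 3 the ratio was 0.68 for Plod1 and 0.55 for P4ha1 but −0.49 for Loxl3, and in replicate 2 all 10 ratios were above 0.

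The differences were not spread evenly over the libraries. Within the run that holds replicates 2 and 3, the log2 fold changes on gene reads were 0.39 for P4ha1, 0.38 for Plod1, 0.38 for Loxl2, 0.28 for Lox and 0.13 for Serpinh1, and 1 of the 10 genes (P4ha1) had an unadjusted p under 0.05, beside 5.07% of all genes in either direction, against 3 on exon reads, beside 5.68%. Replicate 1 has 1 library of each genotype and so gave no test. The unadjusted count of 2 on gene reads, beside 6.05% of all genes in either direction, became 0 without Wild-type replicate 2, Wild-type replicate 3 or Fam102a KO replicate 2, where 3.76% to 5.05% of all genes had such a p, and 4 without Fam102a KO replicate 3 (Loxl1, Loxl2, Plod2 and Serpinh1), where 8.98% did. On exon reads the count of 1, beside 6.8% of all genes, became 0 without the same 3 libraries (4.26% to 6.02% of all genes), 2 without replicate 1 of either genotype (5.79% and 6.74%) and 4 without Fam102a KO replicate 3 (10.4%).

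Fam102a KO replicate 3 did not stand in the same place for all 10 genes. It was the lowest of the 3 Fam102a KO libraries for 6 of the 10 genes (Loxl1, Loxl2, Loxl3, Plod2, Plod3 and Serpinh1) and the highest for 3 (Plod1, P4ha1 and P4ha2), on gene reads as on exon reads, and for Lox it lay between the others. Over all genes tested this library was the lowest of the 3 for 36% and the highest for 37.2%, so the 3 of 10 that were highest were no larger a share than among all genes. In the same library the summed cartilage markers were 980 CPM, against 1805 and 2130 CPM in the other Fam102a KO libraries, and the summed markers of smooth muscle and myofibroblasts were 2366 CPM, against 3616 and 3241 CPM. The summed macrophage markers were 1613 CPM there, against 358 and 1194 CPM. All 10 marker lists overlapped between the genotypes in their sums, but Col1a1 made up 94.2% to 97.4% of the osteoblast sum and Col2a1 90.5% to 93.0% of the cartilage sum. Of the 34 single markers tested on gene reads, 5 were lower in Fam102a KO without overlap, beside 5.61% of all genes, and 2 were higher, beside 5.48%. The lower ones were Alpl, Sp7 and Runx2 (−0.40 on the log2 scale) of the osteoblast list and Col9a1 (−1.38) and Hapln1 (−0.92) of the cartilage list, and the higher ones were Myh11 (0.88) and Des (0.62) of smooth muscle. DESeq2 called Col9a1 (adjusted p = 0.00415) and Hapln1 (adjusted p = 0.00243), as it did Alpl and Sp7, beside 0.708% of all genes. None of the 7 was called by edgeR, beside 0.0488% of all genes. The part of these cell types in the differences of the 10 genes was not tested.

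Of these enzyme genes, Lox, Loxl2, Plod2, P4ha1 and P4ha2 are textbook targets of the hypoxia-inducible factors. The other genes of that response were therefore looked at in the same libraries. Of 21 listed names, 18 were tested on gene reads, 2 of them (Vegfa and Slc2a1) had an unadjusted p under 0.05 and were higher in Fam102a KO, beside 2.92% of all genes, 0 were lower, beside 3.12%, and none was called. The median log2 fold change was 0.24, and without Fam102a KO replicate 3 it was −0.03, with 9 genes above 0 and 9 below. Fam102a KO replicate 3 was the highest Fam102a KO library for 16 of the 18. Eno1, a glycolytic enzyme, had 489, 522 and 509 CPM in Wild-type and 517, 612 and 928 CPM in Fam102a KO. Ldha, lactate dehydrogenase, had 306, 326 and 298 CPM in Wild-type and 280.5, 351 and 526 CPM in Fam102a KO. Pgk1, another glycolytic enzyme, had 107, 141 and 115 CPM in Wild-type and 119, 158 and 215 CPM in Fam102a KO, and in all 3 the third Fam102a KO library was clear of the others. Vegfa, the angiogenic factor, was different in that every Fam102a KO library (41.8 to 49.7 CPM) was above every Wild-type library (27.6 to 39.4 CPM, log2 fold change 0.50 ± 0.14, SE, adjusted p = 0.566). The glucose transporter gene Slc2a1 had a log2 fold change of 0.43 ± 0.18 (SE) and Ndrg1 one of −0.46 ± 0.24, with overlapping groups. Of the enzyme genes named above as targets, P4ha1 and P4ha2 had Fam102a KO replicate 3 as their highest Fam102a KO library. Loxl2 and Plod2 had it as their lowest, and for Lox it lay between the others. Plod1, for which it was also the highest, is not among those named targets. The relation of the hypoxia-inducible genes to the 10 enzyme genes was not tested.

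**Figure D4:**
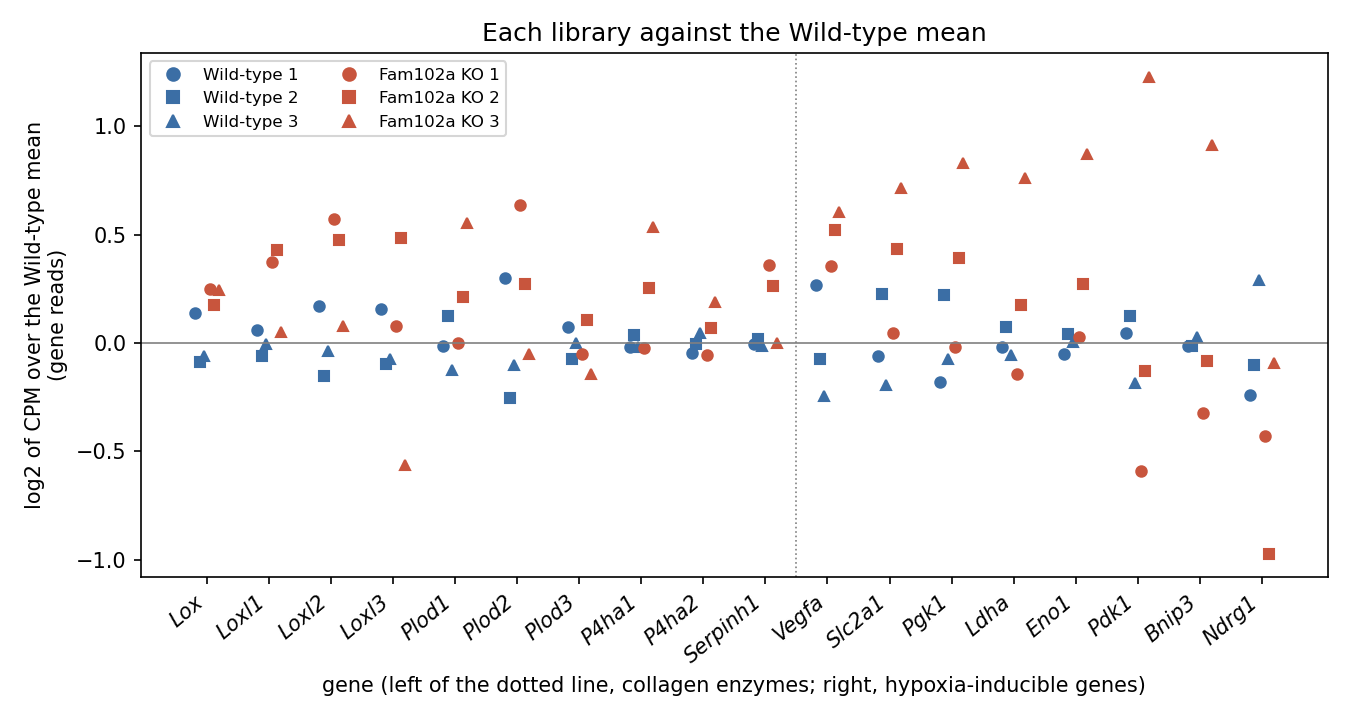
Log2 ratio of the CPM of gene reads in each library to the Wild-type mean, for the 10 collagen enzyme genes (left) and 8 hypoxia-inducible genes (right), with Wild-type in blue and Fam102a KO in red. Fam102a KO replicate 3 (red triangles) was the highest Fam102a KO library for P4ha1, P4ha2, Plod1 and all 8 genes on the right. It was the lowest Fam102a KO library for 6 of the 10 enzyme genes.

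The upstream sequences of P4ha1, P4ha2 and Plod1 are shown because Fam102a KO replicate 3 was the highest Fam102a KO library for these 3 genes. They were thus picked by those values, and a link of the sequences to the values was not tested. Each is the 250 bases before the RefSeq start of the gene (GRCm38.p6), read along the gene. Capitals mark ACGTG on either strand (printed as CACGT where it lies on the other strand). These letters are a form of the core of the hypoxia response element, and other forms of the core were not searched.
P4ha1: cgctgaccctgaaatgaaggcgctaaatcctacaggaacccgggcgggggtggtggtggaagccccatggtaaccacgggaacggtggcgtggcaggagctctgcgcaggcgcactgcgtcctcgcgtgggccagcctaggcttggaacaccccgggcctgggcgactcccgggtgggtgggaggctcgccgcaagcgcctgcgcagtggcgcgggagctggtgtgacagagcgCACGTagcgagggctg
P4ha2: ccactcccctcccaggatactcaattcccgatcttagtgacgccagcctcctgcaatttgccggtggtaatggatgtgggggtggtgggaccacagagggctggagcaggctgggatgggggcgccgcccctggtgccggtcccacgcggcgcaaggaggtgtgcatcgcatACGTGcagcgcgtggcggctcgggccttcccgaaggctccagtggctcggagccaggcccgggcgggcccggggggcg
Plod1: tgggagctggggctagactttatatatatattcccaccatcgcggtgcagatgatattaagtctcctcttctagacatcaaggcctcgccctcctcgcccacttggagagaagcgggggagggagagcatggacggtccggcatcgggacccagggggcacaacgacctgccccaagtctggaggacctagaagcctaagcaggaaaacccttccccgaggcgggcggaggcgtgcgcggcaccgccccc
They lie at chr10:59323046-59323295 on the plus strand, chr11:54100674-54100923 on the plus strand and chr4:147936777-147937026 on the minus strand. The P4ha2 window lies inside the P4ha2 gene as deposited (chr11:54100095-54131665), so it is upstream only of the RefSeq start. ACGTG begins 16 bases before the start of P4ha1 and 78 bases before that of P4ha2. It was not in the Plod1 window, where other forms of the core were not looked for. The letters GCGTG, which differ from ACGTG in the first base, can be read in all 3 windows and were not counted. Of the 10 genes, 5 had an upstream window in the RefSeq table. ACGTG was in 4 of the 5 (P4ha1, P4ha2, Plod3 and Serpinh1), beside 16.6% of all 32851 windows. For Plod3 and Serpinh1, Fam102a KO replicate 3 was the lowest of the 3 Fam102a KO libraries. The core recognized by Runx factors, searched as TGTGGT on both strands, was in 1 of the 5 (P4ha2), beside 14.0% of all windows. A match of so few letters describes the sequence and does not mark a bound site.

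The other genes that modify and fold procollagen had log2 fold changes from −0.50 to 1.02. Of 26 genes on that list all were tested on gene reads, 17 had a log2 fold change above 0 and 9 below, the median was 0.06, 2 (P3h1 and P3h2) had an unadjusted p under 0.05 and were higher, beside 2.92% of all genes, 0 were lower, beside 3.12%, and none was called. P4hb, the protein disulfide isomerase that forms the β subunit of prolyl 4-hydroxylase, had 477, 442 and 453 CPM in Wild-type and 493, 483 and 513 CPM in Fam102a KO (log2 fold change 0.12 ± 0.12, SE). P4hb groups did not overlap, but the difference was about as large as its error. Fkbp10, a peptidyl prolyl isomerase that acts with Hsp47 on collagen, had 234, 234 and 238 CPM in Wild-type and 275, 292 and 246 CPM in Fam102a KO (log2 fold change 0.20 ± 0.12, SE, adjusted p = 0.953). Calr and Pdia3, a chaperone and an isomerase of the endoplasmic reticulum, had log2 fold changes of 0.08 ± 0.13 and 0.09 ± 0.11 (SE).

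Of the prolyl 3-hydroxylase family, only P3h1 and P3h2 were a little apart within this list. The groups of P3h3 and P3h4 overlapped between the genotypes, on gene reads as on exon reads. P3h1, which modifies type I collagen together with Crtap and Ppib, had 86.8, 79.6 and 72.7 CPM in Wild-type and 107, 88.7 and 93.6 CPM in Fam102a KO (log2 fold change 0.28 ± 0.12, SE, edgeR adjusted p = 0.806). P3h2 was low, with 3.73, 3.01 and 2.59 CPM in Wild-type and 5.97, 7.65 and 5.20 CPM in Fam102a KO (log2 fold change 1.02 ± 0.24, SE, edgeR adjusted p = 0.356). For both P3h1 and P3h2 every Fam102a KO library was above every Wild-type library. On exon reads 25 genes of the list were tested, with 2 higher, beside 3.41% of all genes, and 1 lower (Fkbp7), beside 3.4%, at an unadjusted p under 0.05.

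The partners of crosslinking went in both directions. Of 18 genes on that list, which holds substrates, scaffolds, Lox-activating proteinases and copper transporters, all were tested on gene reads, 4 had an unadjusted p under 0.05 and were higher (Tll1, Eln, Postn and Fbn1), beside 2.92% of all genes, 3 were lower (Fmod, Atp7a and Atox1), beside 3.12%, and the median was −0.01. On exon reads 17 were tested, 6 were higher, beside 3.41%, and 2 lower, beside 3.4%. Of the list edgeR called 1 gene on exon reads, beside 0.0794% of all genes, and 0 on gene reads, beside 0.0488%. DESeq2 called 2 (Tll1 and Eln) on each kind of read, beside 0.708% of all genes on gene reads and 0.837% on exon reads. Tll1, a relative of the proteinase Bmp1 that cleaves procollagens and the Lox precursor, rose on exon reads from 39.5, 28.8 and 31.0 CPM in Wild-type to 77.7, 68.2 and 68.1 CPM in Fam102a KO (log2 fold change 1.11 ± 0.14, SE, edgeR adjusted p = 0.043). Its adjusted p on exon reads was 9.05e-07 with DESeq2, 0.0124 with edgeR and the replicate block, and 0.0511 to 0.293 with edgeR when 1 library was left out, while the log2 fold change stayed between 1.01 and 1.25. On gene reads the log2 fold change was 1.21 ± 0.19 (SE), and the adjusted p was 0.124 with edgeR, 0.108 with the block, 8.89e-06 with DESeq2 and 0.0206 with edgeR without Wild-type replicate 1.

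Eln, the tropoelastin gene and the other main substrate of lysyl oxidases, had 881, 640 and 359 CPM in Wild-type and 1598, 1528 and 1180 CPM in Fam102a KO. The groups were well apart, but the Wild-type libraries spread widely, and the log2 fold change of 1.20 ± 0.31 (SE) had an adjusted p of 0.515 with edgeR and 0.00311 with DESeq2. Postn, encoding periostin, a scaffold for the activation of the Lox precursor, had 2726, 1779 and 1731 CPM in Wild-type and 3295, 2831 and 2839 CPM in Fam102a KO (log2 fold change 0.52 ± 0.21, SE, adjusted p = 0.761). Fmod, encoding fibromodulin, which binds collagen and Lox, had 882, 1002 and 1267 CPM in Wild-type and 627, 846 and 715 CPM in Fam102a KO (log2 fold change −0.53 ± 0.18, SE, adjusted p = 0.693). Atp7a, the pump that loads copper into secreted enzymes, had 71.4, 69.5 and 82.1 CPM in Wild-type and 53.9, 53.2 and 65.0 CPM in Fam102a KO (log2 fold change −0.37 ± 0.12, SE, adjusted p = 0.668). On exon reads the Atp7a groups overlapped (log2 fold change −0.26 ± 0.15, SE). The abundant genes Sparc and Fn1, for a collagen-binding protein and fibronectin, had log2 fold changes of 0.04 ± 0.16 and −0.07 ± 0.21 (SE).

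**Figure D5:**
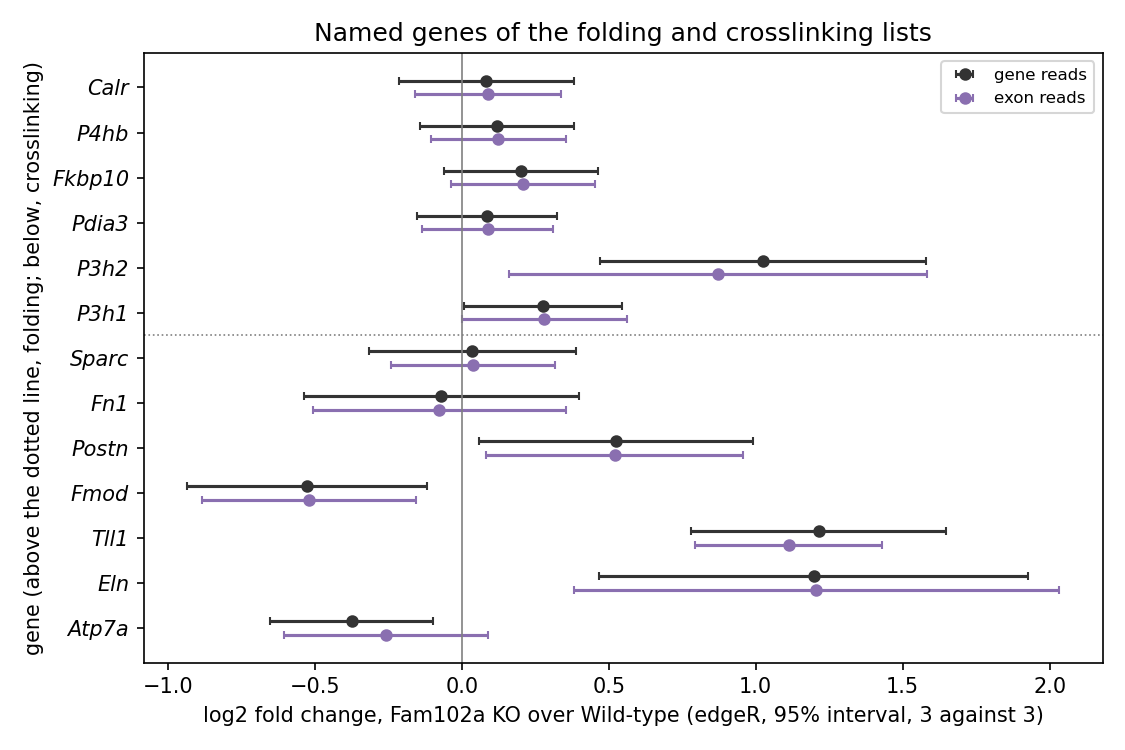
Log2 fold change of Fam102a KO over Wild-type with its 95% interval for the named genes of the folding list (above the dotted line) and of the crosslinking list (below it), on gene reads (black) and exon reads (violet), 3 libraries against 3. Tll1 and Eln lay above 1, Fmod and Atp7a below 0, and the abundant folding genes Calr, P4hb, Fkbp10 and Pdia3 between 0.08 and 0.21.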

How the data were processed

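Total RNA was turned into cDNA by the SMART-seq v4 method and read by an Ion Proton instrument. Alignment to mm10 and counting were done by the authors in CLC Genomics Workbench. The alignment settings, the annotation release and the handling of strand are not stated in any source used here. The deposited counts are reads per gene (exon, intron and unique reads), and the deposited RPKM, computed by the authors, was used only as an alternative level. Total gene reads and total exon reads were each fitted over the whole table with edgeR 4.0.16 (quasi-likelihood test, robust, TMM factors, filterByExpr defaults, n = 3 against 3, Benjamini-Hochberg over all genes tested). DESeq2 1.42.0, a replicate block, other scalings and filters, unique reads, replicates 2 and 3 only and the omission of each library were alternatives, and the scripts were tested on simulated data. Same-numbered libraries of the 2 genotypes correlated in their deviations from the group means (r = 0.349, 0.223 and 0.241 over 14259 genes), and the numbers were therefore taken to pair them. Unadjusted p-values under 0.05 are given as counts, in the report beside the share of all genes in the same fit, and a call is an adjusted p under 0.05. The 10 genes, the lists and the alternatives were chosen with earlier results of these data known. Of each list the 4 genes with the highest level per length and up to 3 others with the smallest unadjusted p under 0.05 on gene reads are described. Overlaps, shared windows and coding sequences are from GENCODE M21 (GRCm38), and upstream windows from RefSeq.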

Additional observations from a re-analysis of the deposited data

How the results depend on the processing

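With 3 libraries a group, the 95% intervals of the 10 genes on gene reads reached 0.24 to 0.57 on either side of the log2 fold change, so differences of that size could not be resolved, and none of the 10 was called under any alternative. Of 320 alternative log2 fold changes of the 10 genes, 312 kept their sign and 8 did not. Plod3 turned positive with replicates 2 and 3 only (0.021 on gene reads, 0.044 on exon reads), without Wild-type replicate 1 and without Fam102a KO replicate 3, and with a library left out it ran from −0.097 to 0.029 on gene reads and from −0.10 to 0.042 on exon reads. Loxl3 turned negative without Fam102a KO replicate 2, and with a library left out it ran from −0.21 to 0.30 on gene reads and from −0.21 to 0.30 on exon reads. The causes were not tested.

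The count of the 10 genes at an unadjusted p under 0.05 on gene reads, 2 in the fit as reported, was 1 with upper quartile factors, with DESeq2, without the robust fit, with replicates 2 and 3 only and with the reads of Gm21451 added to Loxl2 (an alternative chosen after the data had been seen), 0 with unique reads, 5 without the filter, and 0 to 4 with a library left out. Beside these counts, 5.07% to 6.35% of all genes had such a p, and 3.76% to 8.98% with a library left out. On exon reads the count of 1 was 5 without the filter (6% of all genes), 5 with the replicate block (9.55%) and 3 with replicates 2 and 3 only (5.68%). It was 0 with unique reads (7.02%), 0 with the reads of Gm21451 added (6.8%), and 0 to 4 with a library left out (4.26% to 10.4%). Without the filter edgeR called 340 of all genes on gene reads and 326 on exon reads, against 8 and 11, and DESeq2 called 116 on each. On exon reads the replicate block called 42, and replicates 2 and 3 alone gave 0 calls on either.

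For the wider lists at an unadjusted p under 0.05, the folding list had 2 genes, 1 on exon reads with DESeq2, 1 to 4 with a library left out on gene reads and 0 on exon reads at the lowest. The crosslinking list had 7, and 3 to 9 with a library left out on gene reads and 4 on exon reads at the lowest. The hypoxia list had 2, 4 with the replicate block on gene reads, 5 with DESeq2 on gene and on exon reads, and 1 to 8 with a library left out on gene reads and 1 to 7 on exon reads. Among all genes the share was 6.05% on gene reads and 6.8% on exon reads, and 5.29% and 5.64% with DESeq2. It was 8.33% with the block on gene reads. With a library left out it was 3.76% to 8.98% on gene reads and 4.26% to 10.4% on exon reads. The replicate block moved no other count of the members or the lists by over 1.5 times, and it changed no edgeR call of a named gene. Deposited RPKM moved all 20 mean levels, and the cause was not tested.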
